A study of Mus musculus with 19 samples.

Results

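Bile acid synthesis, conjugation, transport and signalling through the farnesoid X receptor (FXR) were followed in mouse liver with a list of 31 genes. The rule was a list of the pathway's genes and uses no measured value, although the list was drawn up with earlier results of these data known. All 31 were found among the 35498 genes summed from the transcripts. Of these, 29 had enough reads to be tested, among 13594 tested genes in all. Gpbar1, the membrane bile acid receptor TGR5, and Slc51a, the alpha subunit of the OST exporter, were too low, with 0 to 5 and 0 to 4 reads per library.

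The liver RNA came from male C57BL/6J mice, which the labels place at 24 weeks. The 4 treatments were CTRL and WSD, with 5 libraries each, and the same with beta-glucan, CTRL+beta-Glucan with 5 libraries and WSD+beta-Glucan with 4. WSD is a treatment name that the labels do not spell out, no genetic change is given for any group, and the title names oat beta-glucan in the diet and fatty liver disease. The labels do not tie each library to a mouse of its own, so the spread that the p-values rest on is that between these libraries and may be technical.

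Hepatocytes make bile acids from cholesterol by a classic route that starts with 7-alpha-hydroxylation and by an alternative route that starts at the side chain. They conjugate the products to taurine or glycine, export them across the canalicular membrane into bile, and take them up again from portal blood. Bile acids activate FXR, which induces the export pump and the repressor SHP in the liver, and in the ileum the hormone FGF15, which acts on the hepatocyte through FGFR4 and beta-Klotho to lower synthesis.

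The libraries held 17253823 to 23450232 estimated reads, with a median of 19481377, and no pair of libraries held the same counts. Replicates 1 and 2 of CTRL+beta-Glucan and replicate 1 of WSD+beta-Glucan carry titles outside the number range of the others, and lay highest within their groups on the second principal component, with 6.68% of the variance. Results were therefore also computed without these 3 libraries. In WSD against CTRL, 6 of 10 hepatocyte markers were lower and none higher, against 27.1% lower and 26.0% higher among all genes tested. Their summed level was 61685 to 73923 counts scaled to a common library size (CPM) in WSD and 116420 to 149330 in CTRL. It was 71053 to 103890 CPM in WSD+beta-Glucan and 127490 to 173340 CPM in CTRL+beta-Glucan. Alb alone had a mean of 83730 CPM in CTRL and 38550 CPM in WSD, so these sums largely follow that gene. All 10 macrophage markers were higher in WSD, at 1272 to 1544 CPM summed against 109 to 321 CPM in CTRL. Of 8 stellate cell markers 7 were higher, with the sum over all 8 at 376 to 729 against 68.0 to 177 CPM. Of 10 cholangiocyte markers 5 were higher, with the sum over all 10 at 41.4 to 97.5 against 33.1 to 57.9 CPM, with overlap. Of 8 endothelial markers 6 were higher, with the sum over all 8 at 181.6 to 281 against 69.4 to 209 CPM, also with overlap. The part of these shifts in the results below was not tested. In bulk RNA, fewer hepatocytes and less RNA of these marker genes per hepatocyte cannot be told apart. Fgf15 itself, made in the ileum, had 0 reads in all 19 libraries.

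Promoter sequence is shown for 6 members on which the results turn: Slco1a1, Cyp8b1 and Slc10a1, which were lower in WSD than in CTRL, Slc51b, which was higher, and Abcb11 and Nr0b2, textbook FXR targets that did not pass the test in that comparison. The sequences are from RefSeq (GRCm38.p6), which had entries for 24 of the 31 genes; Atp8b1, Baat, Cyp7a1, Cyp7b1, Abcc3, Slc27a5 and Amacr had none. Each run holds the 250 bases before the start of transcription, read 5′ to 3′ on the gene's strand. The windows lie at chr6:141946963-141947212 (minus strand) for Slco1a1, chr9:121916306-121916555 (minus) for Cyp8b1, chr12:80968706-80968955 (minus) for the first listed start of Slc10a1, chr9:65422774-65423023 (minus) for Slc51b, chr2:69342617-69342866 (minus) for Abcb11 and chr4:133553126-133553375 (plus) for Nr0b2. Capitals mark matches to 5 short patterns searched on both strands, which are described after the sequences.
Slco1a1: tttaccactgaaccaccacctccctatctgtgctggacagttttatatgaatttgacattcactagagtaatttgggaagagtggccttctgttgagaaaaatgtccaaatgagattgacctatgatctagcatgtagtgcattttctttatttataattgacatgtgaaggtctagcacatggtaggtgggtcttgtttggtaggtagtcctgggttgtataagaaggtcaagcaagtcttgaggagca
Cyp8b1: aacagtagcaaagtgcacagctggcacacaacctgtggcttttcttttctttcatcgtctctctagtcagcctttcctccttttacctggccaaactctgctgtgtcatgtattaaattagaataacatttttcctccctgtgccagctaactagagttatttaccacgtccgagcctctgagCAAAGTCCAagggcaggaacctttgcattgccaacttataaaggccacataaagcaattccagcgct
Slc10a1: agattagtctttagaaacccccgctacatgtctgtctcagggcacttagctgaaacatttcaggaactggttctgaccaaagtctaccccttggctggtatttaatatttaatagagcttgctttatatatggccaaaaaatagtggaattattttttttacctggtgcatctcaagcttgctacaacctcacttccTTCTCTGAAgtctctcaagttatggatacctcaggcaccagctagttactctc
Slc51b: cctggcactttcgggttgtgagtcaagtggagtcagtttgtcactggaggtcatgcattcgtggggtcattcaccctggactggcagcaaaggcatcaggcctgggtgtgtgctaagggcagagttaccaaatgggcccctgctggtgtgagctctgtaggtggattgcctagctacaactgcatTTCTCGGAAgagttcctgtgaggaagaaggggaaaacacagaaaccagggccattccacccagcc
Abcb11: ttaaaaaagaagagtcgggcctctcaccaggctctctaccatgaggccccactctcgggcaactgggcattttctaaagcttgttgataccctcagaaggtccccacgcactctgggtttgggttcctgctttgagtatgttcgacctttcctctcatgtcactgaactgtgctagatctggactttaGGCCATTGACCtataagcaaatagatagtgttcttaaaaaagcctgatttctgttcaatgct
Nr0b2: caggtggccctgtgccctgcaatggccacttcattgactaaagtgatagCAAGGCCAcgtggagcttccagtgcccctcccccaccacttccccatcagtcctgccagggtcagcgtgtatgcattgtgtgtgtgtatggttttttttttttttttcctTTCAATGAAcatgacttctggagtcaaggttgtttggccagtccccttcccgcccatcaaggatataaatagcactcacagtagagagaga

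The patterns were an FXR-type inverted repeat (GGNCANTGNCC), an HNF4A-type site (CAAAGTCCA), 2 spellings of an LRH-1-type site (CAAGGTCA and CAAGGCCA) and a STAT5-type site (TTCNNNGAA). The FXR-type repeat was found in 0.575% of 32851 promoter windows of the same length, and among the members in those of Abcb11 (GGCCATTGACC, from -62 to -52 relative to the start) and Slco1b2. The HNF4A-type site was found in 0.384% of windows and in that of Cyp8b1 alone among the members, from -67 to -59. CAAGGCCA was found in 1.99% of windows and in those of Nr0b2 (from -201 to -194) and Slc51a, whereas CAAGGTCA, in 1.33% of windows, was in no member's. The STAT5-type site was the least specific, in 7.02% of windows and in those of 6 members, among them Slc10a1 (TTCTCTGAA), Slc51b (TTCTCGGAA) and Nr0b2 (TTCAATGAA). No pattern overlapped another in the 6 windows shown. The percentages are per window, whereas a member was counted if any of its windows held a match, so these scales differ. These matches are descriptions of sequence and not measured binding.

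Levels between genes were compared in CTRL in TPM, transcript abundances scaled by length within a library. Scp2, a peroxisomal sterol carrier and thiolase, was the most abundant member at a mean of 3118 ± 255 TPM (SD, n = 5), and Cyp8b1, the 12-alpha-hydroxylase that sets the share of cholic acid, was next at 750.4 ± 145 TPM. Slc27a5, which activates bile acids with coenzyme A, followed at 489 ± 21.0 TPM. The levels of Slc10a1, Cyp27a1 and Hsd3b7, at means of 319, 317 and 314 TPM, did not differ beyond their spread. Cyp7a1, the rate-limiting enzyme of the classic route, had a mean of only 16.4 ± 16.1 TPM, below Cyp7b1 at 162 TPM and close to Fgfr4 at 16.2 TPM. Of the basolateral exporters, Abcc3 stood at 125 TPM while Abcc4 was at 0.500 TPM and Slc51b at 0.951 TPM. A mean of 40.65% of the Abcc3 TPM was that of Abcc3-203, a processed transcript of 567 bases with 3.35 to 7.78% of the gene's reads. Klb, which encodes beta-Klotho, was at 8.49 TPM, against 63.4 TPM for Nr1h4, which encodes FXR.

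**Figure D1:**
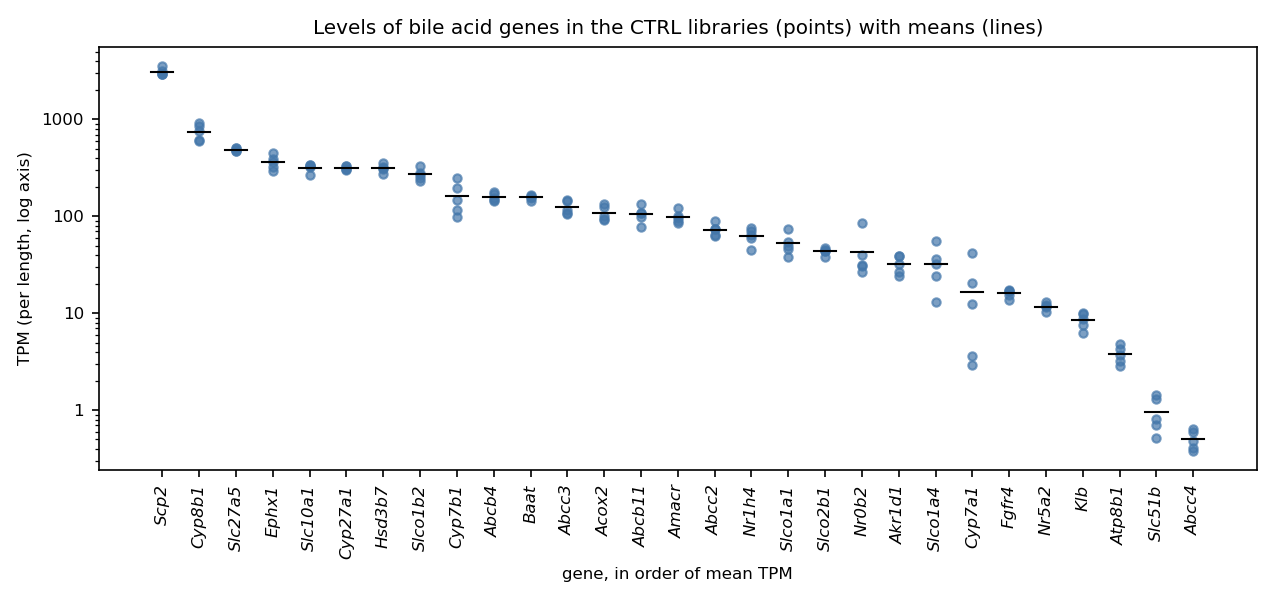
TPM (log axis) of the 29 tested genes in CTRL, 1 point per library (n = 5), genes ordered by mean. Scp2 leads at a mean of 3118 TPM, and the points of Cyp7a1 are spread more widely than those of any other gene shown.

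The comparison of WSD with CTRL asked how the livers of WSD mice differed in the absence of beta-glucan. With edgeR's quasi-likelihood test, 17 of the 29 tested members were lower and 1 was higher at an adjusted p under 0.05, and 11 did not pass. Over all tested genes 27.1% were lower and 26.0% higher. The median log2 fold change was -0.30 over the members and -0.04 over all genes tested. By role, the falls took in both genes of the alternative route, Cyp8b1 but not the entry enzyme Cyp7a1 on the classic route, both conjugation genes, 4 of 5 uptake carriers, 4 of 5 tested receptors and regulators, 2 of 5 ring and side chain enzymes and 2 of 4 canalicular proteins. The only higher member was the basolateral exporter subunit Slc51b.

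The entry enzyme of the classic route was not among the genes called. Cyp7a1 (ENSMUSG00000028240) was at 7.54, 8.23, 97.0, 33.8 and 58.0 CPM in CTRL replicates 1 to 5 and at 11.1, 35.0, 45.1, 85.5 and 20.2 CPM in WSD. The groups overlapped almost wholly, and the highest CTRL library was 12.9 times the lowest. The log2 fold change was -0.06 ± 0.75 (SE; adjusted p = 0.956), an error that leaves room for a sizeable change in either direction. Its coefficient of variation in CTRL, 92.0%, was the highest of the 29 tested members, followed by 52.1% for Nr0b2, and that of Cyp27a1 was the lowest at 3.08%.

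Cyp8b1 (ENSMUSG00000050445) stood at 1101, 1137, 1613, 1443 and 1822 CPM in CTRL and at 375, 209.7, 406, 529 and 174 CPM in WSD. Every WSD library lay below every CTRL library, a 4.20-fold lower level (log2 fold change -2.07 ± 0.33, adjusted p = 5.66e-05). In CTRL+beta-Glucan it stood at 1014, 1315, 1697, 1274 and 1698 CPM, within or close to the CTRL range.

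On the alternative route, Cyp7b1 (ENSMUSG00000039519), the oxysterol 7-alpha-hydroxylase, stood at 143, 171, 191, 275 and 407 CPM in CTRL and at 31.1, 29.2, 55.5, 31.5 and 16.6 CPM in WSD. It fell 7.25-fold with no overlap (log2 fold change -2.86 ± 0.38, adjusted p = 8.8e-06), although the CTRL libraries themselves differed widely. Cyp27a1 (ENSMUSG00000026170), the mitochondrial sterol 27-hydroxylase, was at 537, 525, 503, 515 and 543 CPM in CTRL and at 314, 322, 323, 409 and 276 CPM in WSD. Its fall was smaller at 1.60-fold (log2 -0.67 ± 0.10, adjusted p = 2.03e-05) but stood well clear of the narrow spread of the CTRL libraries. In CTRL+beta-Glucan, Cyp7b1 was at 299.6, 217, 120.4, 126 and 110.1 CPM and Cyp27a1 at 604, 659, 539, 555 and 505 CPM.

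Of the enzymes that modify the ring and side chain, Amacr, the racemase of the side chain, fell by 0.43 ± 0.09 on the log2 scale (adjusted p = 0.000579), from 161 ± 14.0 to 119 ± 15.5 CPM. Scp2 fell by 0.29 ± 0.11 (adjusted p = 0.0302), with overlapping groups, and its call was lost in 8 of 28 alternatives. These left out WSD replicate 1 or 5 or CTRL replicate 3 or 5, used RLE scaling, no count filter or only both groups compared, or added the effective length offset (log2 -0.11, adjusted p = 0.329). Hsd3b7, the dehydrogenase common to both routes, Akr1d1, the 5-beta-reductase, and Acox2, the side chain oxidase, did not pass, at log2 fold changes of 0.02, -0.12 and 0.02. Both conjugation genes fell without overlap. Baat, which joins bile acids to taurine or glycine, went from 259.6 ± 19.4 to 178 ± 25.9 CPM (log2 -0.55 ± 0.10, adjusted p = 8.69e-05). Slc27a5 went from 1077 ± 49.2 to 679 ± 123 CPM (log2 -0.67 ± 0.13, adjusted p = 0.000319).

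**Figure D2:**
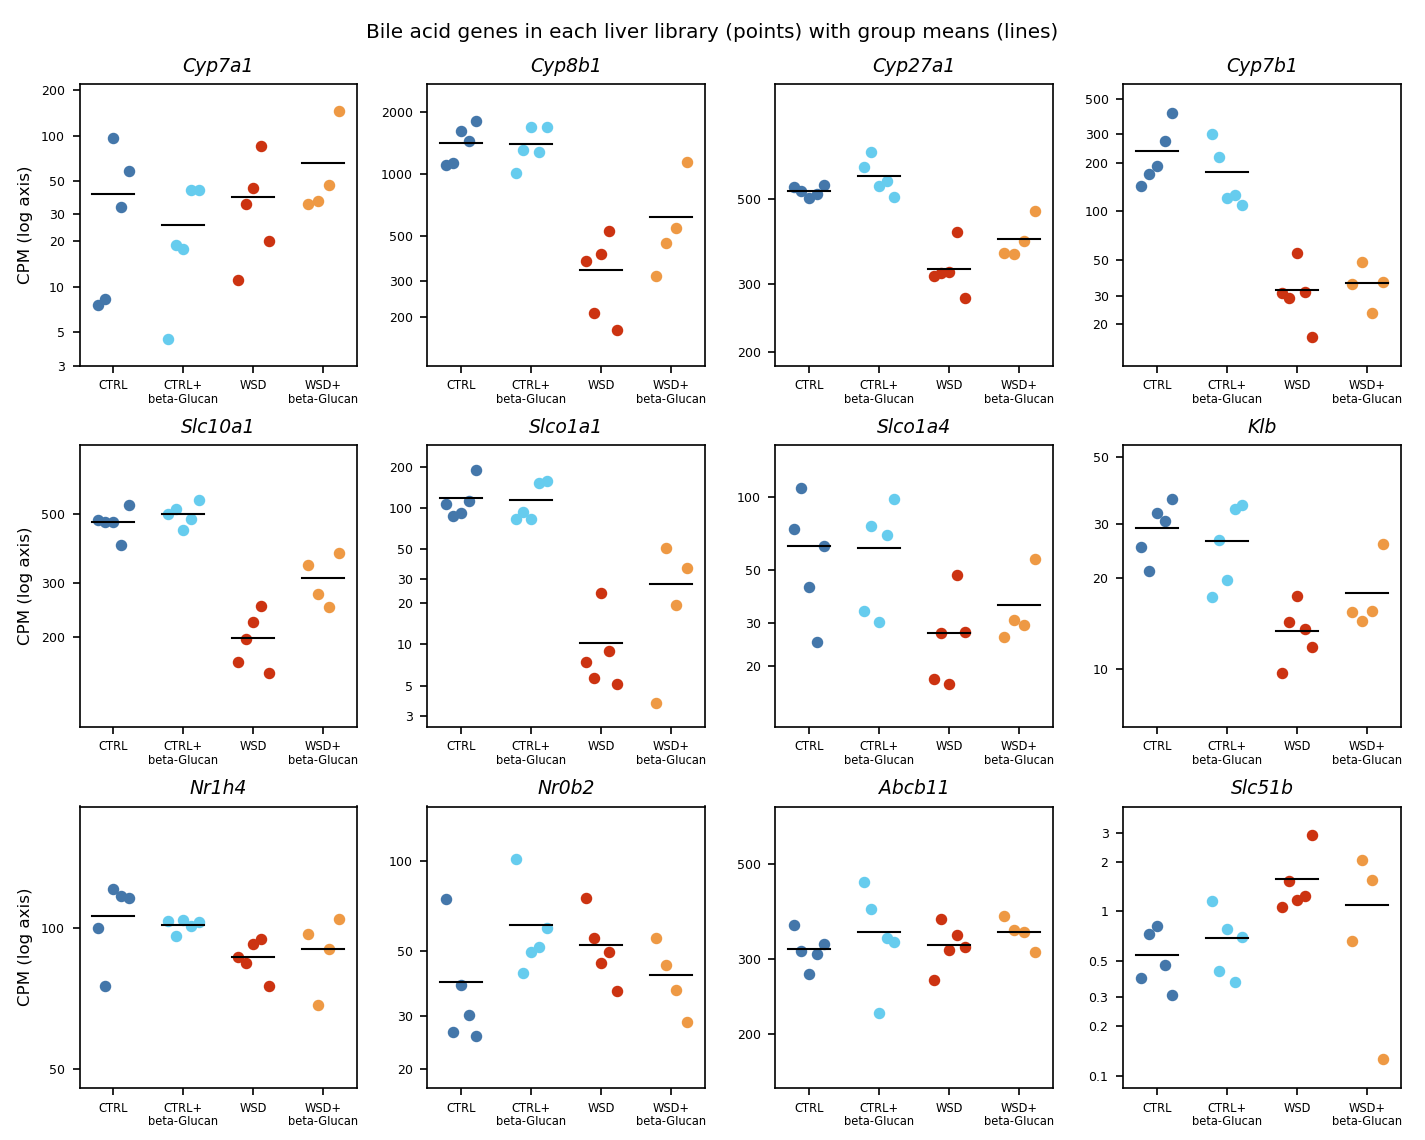
CPM (log axis) of 12 members in each library by group, with the group mean as a line. Cyp8b1, Cyp7b1, Slc10a1 and Slco1a1 are separate in CTRL and WSD, whereas the groups overlap for Cyp7a1, Nr0b2 and Abcb11.

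Uptake carriers showed both the largest fall of any member and genes with little difference. Slco1a1 (ENSMUSG00000041698), an organic anion transporter of the sinusoidal membrane, was at 106, 86.9, 91.2, 112 and 191 CPM in CTRL and at 7.37, 5.66, 24.0, 8.93 and 5.16 CPM in WSD, with no overlap. This 11.5-fold fall (log2 -3.52 ± 0.57, adjusted p = 8.23e-05) was the largest among the members. Slc10a1 (ENSMUSG00000021135), the sodium-dependent importer NTCP, was at 479.7, 472, 473, 398 and 534 CPM in CTRL and at 166, 197, 224, 253 and 154 CPM in WSD. It fell 2.37-fold (log2 -1.25 ± 0.13, adjusted p = 3.16e-07), again without overlap, and had the smallest p of the members.

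Slco1a4 (ENSMUSG00000030237), another organic anion transporter, was at 73.3, 108, 42.4, 25.2 and 62.8 CPM in CTRL and at 17.7, 27.4, 16.8, 47.3 and 27.5 CPM in WSD. The groups overlapped, and the fall (log2 -1.19 ± 0.41, adjusted p = 0.0226) did not pass without WSD replicate 1, WSD replicate 3 or CTRL replicate 2 (adjusted p up to 0.0742). Slco1a1 and Slco1a4 are related genes of 1 cluster, so reads that fit both were divided by the quantification and their separate levels are less certain. Slco2b1 fell by 0.30 ± 0.11 on the log2 scale (adjusted p = 0.0237), and not without WSD replicate 1 or 5 (adjusted p up to 0.0712). Slco1b2, the most abundant Slco carrier in TPM in CTRL, did not pass at 483 ± 60.4 CPM in CTRL and 461 ± 91.6 CPM in WSD (log2 -0.07, adjusted p = 0.722).

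The canalicular genes were mixed. Abcb11 (ENSMUSG00000027048), the canalicular bile salt export pump, was at 359.7, 314, 276, 308 and 325 CPM in CTRL and at 268, 373, 316, 341 and 319.5 CPM in WSD, with full overlap (log2 0.03 ± 0.14, adjusted p = 0.865). Abcc2, the conjugate exporter MRP2, fell from 379 ± 22.8 to 282 ± 37.4 CPM (log2 -0.43 ± 0.10, adjusted p = 0.00132). Abcb4, the phospholipid floppase, went from 559.8 ± 60.9 to 415 ± 26.2 CPM (log2 -0.43 ± 0.10, adjusted p = 0.00161), also without overlap. Atp8b1, the aminophospholipid flippase of the same membrane, did not pass (log2 -0.06, adjusted p = 0.718).

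At the basolateral membrane, Slc51b (ENSMUSG00000053862), the beta subunit of the OST exporter and an FXR target, was at 0.394, 0.731, 0.816, 0.473 and 0.309 CPM in CTRL and at 1.06, 1.53, 1.17, 1.24 and 2.89 CPM in WSD. These values rest on 6 to 14 reads per CTRL library and 23 to 71 per WSD library. The groups did not overlap and the rise was 2.90-fold (log2 1.54 ± 0.50, adjusted p = 0.0145). Without WSD replicate 5, the highest library, it did not pass (log2 1.20, adjusted p = 0.0565). Abcc3 and Abcc4, the exporters MRP3 and MRP4, did not pass, at log2 -0.17 ± 0.12 (adjusted p = 0.253) and 0.34 ± 0.19 (adjusted p = 0.149). Ephx1, the microsomal epoxide hydrolase that has been linked to bile acid uptake, was at 606 ± 95.8 and 569 ± 16.3 CPM (adjusted p = 0.607).

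Among the receptors and regulators, Klb (ENSMUSG00000029195), the co-receptor for FGF15, fell most. It was at 25.1, 21.0, 32.7, 30.7 and 36.3 CPM in CTRL and at 9.68, 14.3, 17.4, 13.6 and 11.8 CPM in WSD, a 2.18-fold fall without overlap (log2 -1.13 ± 0.22, adjusted p = 0.000296). Fgfr4, its receptor partner, fell by 0.36 ± 0.12 on the log2 scale (adjusted p = 0.0176), and Nr5a2, the nuclear receptor LRH-1 that activates synthesis genes, by 0.51 ± 0.12 (adjusted p = 0.00159).

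Nr1h4 (ENSMUSG00000047638) was at 99.9, 75.3, 121, 117 and 116 CPM in CTRL and at 86.6, 84.1, 92.5, 94.7 and 75.3 CPM in WSD. The groups overlapped, and the fall (log2 -0.29 ± 0.12, adjusted p = 0.0456) did not pass in 18 of 28 alternative analyses, with adjusted p up to 0.12. Of these, 11 left out 1 library: WSD replicate 1, 2 or 5, CTRL replicate 3, 4 or 5, CTRL+beta-Glucan replicate 2, 3 or 4, or WSD+beta-Glucan replicate 1 or 3. Nr0b2 (ENSMUSG00000037583), which encodes the FXR-induced repressor SHP, was at 74.5, 26.6, 38.4, 30.3 and 25.8 CPM in CTRL and at 75.2, 55.0, 45.4, 49.4 and 36.4 CPM in WSD. It did not pass (log2 0.42 ± 0.31, adjusted p = 0.264), with CTRL replicate 1 far above its group. Without that library the log2 fold change was 0.79 and the adjusted p = 0.0176.

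**Figure D3:**
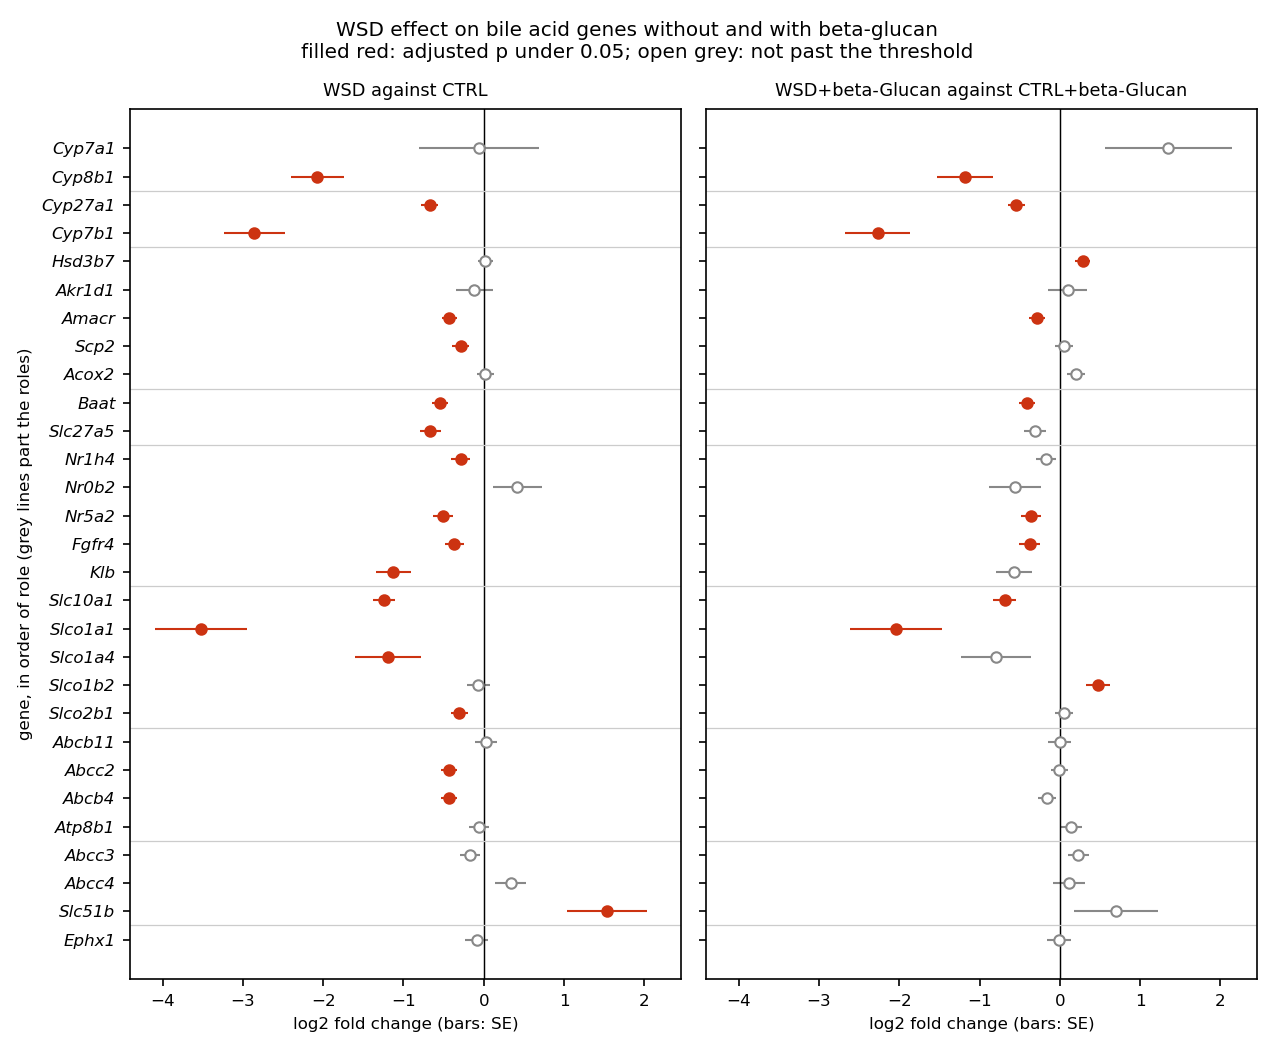
Log2 fold change with its SE for the 29 tested members in WSD against CTRL and in WSD+beta-Glucan against CTRL+beta-Glucan, grouped by role; filled red points have an adjusted p under 0.05. The falls of Slco1a1 and Cyp7b1 reach furthest to the left in both panels, and Abcb11 lies near 0 in both.

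The same comparison within the groups given beta-glucan, WSD+beta-Glucan against CTRL+beta-Glucan, compares other libraries than the first, but both were fitted in 1 model, which shares its estimate of the spread. Of the 29 tested members 9 were lower and 2 were higher, against 15.2% lower and 19.1% higher among all genes tested. Again both genes of the alternative route and Cyp8b1 were lower. Cyp7b1 in WSD+beta-Glucan stood at 35.8, 48.5, 23.5 and 36.8 CPM, below all CTRL+beta-Glucan libraries (4.82-fold, log2 -2.27 ± 0.40, adjusted p = 0.000405). Cyp27a1 stood at 362, 359.9, 387 and 464 CPM (log2 -0.54 ± 0.11, adjusted p = 0.00087), also without overlap. Cyp8b1 stood at 317, 461, 543 and 1150.0 CPM, and its highest library reached into the CTRL+beta-Glucan range (log2 -1.18 ± 0.35, adjusted p = 0.0148). This call did not pass without WSD+beta-Glucan replicate 2 or without the 3 libraries with other titles (log2 -1.11, adjusted p = 0.0534).

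Of the uptake carriers, Slc10a1 was at 344, 276, 251 and 376 CPM in WSD+beta-Glucan and at 501, 518, 445, 482 and 557 CPM in CTRL+beta-Glucan, without overlap (log2 -0.68 ± 0.14, adjusted p = 0.00106). Slco1a1 was at 3.73, 50.7, 19.4 and 36.5 CPM against 82.8, 93.7, 82.8, 153 and 157 CPM, a 4.12-fold fall without overlap (log2 -2.04 ± 0.57, adjusted p = 0.0121). Slco1b2 was higher at 564 ± 58.6 against 406 ± 87.1 CPM (log2 0.48 ± 0.15, adjusted p = 0.0213), with overlap. Slco1a4, at 26.5, 31.1, 29.6 and 55.5 CPM against 33.8, 76.0, 30.5, 69.4 and 98.3 CPM, did not pass (log2 -0.79 ± 0.44, adjusted p = 0.174).

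Hsd3b7 was the other higher member, at 590.0 ± 54.9 against 485 ± 12.4 CPM (log2 0.28 ± 0.10, adjusted p = 0.0261). Without the 3 libraries neither Hsd3b7 nor Slco1b2 passed. Without WSD+beta-Glucan replicate 4 both calls were lost too, as was that of Hsd3b7 without replicate 1 of that group and that of Slco1b2 without CTRL+beta-Glucan replicate 1 or 3; over all alternatives their adjusted p ran up to 0.0938 and 0.12. Baat fell by 0.40 ± 0.10 on the log2 scale (adjusted p = 0.00453), and smaller falls passed for Amacr, Nr5a2 and Fgfr4, with log2 fold changes of -0.28, -0.36 and -0.37 and adjusted p between 0.0291 and 0.0376. The calls of these 3 genes were lost in 7, 5 and 9 of 28 alternatives, with adjusted p up to 0.168, 0.111 and 0.367. The last of these was without the 3 libraries, where the log2 fold change of Fgfr4 was -0.16. All 3 were lost without WSD+beta-Glucan replicate 2 and without replicate 3. That of Fgfr4 was also lost without WSD+beta-Glucan replicate 4 or CTRL+beta-Glucan replicate 1, 2 or 4, that of Nr5a2 without CTRL+beta-Glucan replicate 4 or 5, and that of Amacr without CTRL+beta-Glucan replicate 5. Klb was at 15.4, 14.4, 15.6 and 25.8 CPM against 17.3, 26.7, 19.7, 33.6 and 34.6 CPM and did not pass (log2 -0.57 ± 0.23, adjusted p = 0.0624). In 5 of 28 alternatives Klb did pass (adjusted p down to 0.0123). These were DESeq2, a term for the 3 libraries with other titles, and leaving out WSD+beta-Glucan replicate 4 or CTRL+beta-Glucan replicate 1 or 3. Slc27a5 did not pass in the reported analysis either (log2 -0.31 ± 0.14, adjusted p = 0.0971), and did without WSD+beta-Glucan replicate 4 or CTRL+beta-Glucan replicate 3 (adjusted p down to 0.0323).

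No exporter passed in this comparison. Abcb11 was at 378, 352, 348 and 312 CPM in WSD+beta-Glucan and at 455, 393, 225, 335 and 329.6 CPM in CTRL+beta-Glucan (adjusted p = 0.998), and Abcc2 at 321 ± 37.6 and 323 ± 30.0 CPM. Slc51b was at 0.659, 2.04, 1.56 and 0.126 CPM, from 3 to 48 reads per library, against 1.15, 0.434, 0.781, 0.371 and 0.692 CPM (log2 0.71 ± 0.52, adjusted p = 0.314). Nr1h4, at 97.0, 68.5, 90.1 and 104 against 103, 96.1, 104, 101 and 103 CPM, and Nr0b2, at 55.1, 44.5, 36.8 and 28.8 against 102, 42.0, 49.3, 51.6 and 59.7 CPM, did not pass either (adjusted p = 0.302 and 0.195). Cyp7a1 was at 35.0, 36.8, 47.1 and 145 CPM against 4.47, 18.7, 17.8, 43.7 and 43.4 CPM (log2 1.35 ± 0.79, adjusted p = 0.2).

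Whether beta-glucan changed these genes in mice of the WSD group was addressed by WSD+beta-Glucan against WSD. Slc10a1 was the only member called, higher in WSD+beta-Glucan, and none was lower, against 0.0883% higher and 0.302% lower among all genes tested. Its 4 WSD+beta-Glucan libraries lay between 251 and 376 CPM and its 5 WSD libraries between 154 and 253 CPM, so that they overlapped by 1 library on each side (1.57-fold, log2 0.65 ± 0.14, adjusted p = 0.0475). The call was lost in 19 of 28 alternatives. Of these, 13 left out 1 library: WSD+beta-Glucan replicate 1, 2 or 4, WSD replicate 1, 2, 3 or 5, CTRL+beta-Glucan replicate 2, 3 or 4, or CTRL replicate 2, 3 or 5. Over the alternatives its log2 fold change stayed between 0.54 and 0.75 and its adjusted p ran from 0.0025 (DESeq2) to 0.26. Without the 3 libraries with other titles it was 0.59 with an adjusted p of 0.104.

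With Slc10a1, 10 of the 29 members had an unadjusted p under 0.05, against 15.6% of all genes tested. The other 9, which did not pass after adjustment, had the higher mean in WSD+beta-Glucan: Cyp8b1, Cyp27a1, Hsd3b7, Akr1d1, Amacr, Slc27a5, Slco1a1, Slco2b1 and Abcc3. Slco1a1 had a log2 fold change of 1.44 ± 0.56 (adjusted p = 0.237), with WSD+beta-Glucan replicate 1 at 3.73 CPM below every WSD library. Cyp8b1 was at 0.87 ± 0.34 (adjusted p = 0.234), and at 0.38 without WSD+beta-Glucan replicate 4, its library at 1150.0 CPM. Akr1d1 was at 0.58 ± 0.24 (adjusted p = 0.267). Slco2b1 was at 152 ± 13.4 CPM in WSD+beta-Glucan and 116 ± 12.1 CPM in WSD (log2 0.40 ± 0.11, adjusted p = 0.113). Its groups did not overlap, but the share of all genes tested without overlap in this comparison was not computed. Slco2b1 passed in 4 alternatives: with DESeq2 (adjusted p = 0.0479), with a term for the 3 libraries with other titles (adjusted p = 0.0431), without CTRL+beta-Glucan replicate 5, and with only both groups compared, where Slc10a1 did not pass. Cyp7b1, which was so much lower in WSD, differed little, at 36.2 ± 10.2 and 32.8 ± 14.1 CPM (log2 0.14 ± 0.38, adjusted p = 0.892). Cyp7a1 did not pass, at 66.0 ± 53.0 CPM in WSD+beta-Glucan and 39.4 ± 28.9 CPM in WSD (log2 0.75 ± 0.78, adjusted p = 0.678). Over the alternatives the log2 fold change of Cyp7a1 ran from 0.01 to 1.25.

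The median log2 fold change was 0.21 over the members and 0.01 over all genes tested. No tested regulator passed, at log2 fold changes of 0.06 for Nr1h4, 0.16 for Nr5a2, -0.02 for Fgfr4, 0.42 ± 0.23 for Klb and -0.34 ± 0.32 for Nr0b2. This comparison shares its WSD libraries with the first and its WSD+beta-Glucan libraries with the second. No hepatocyte or macrophage marker passed in it, although 8 of 10 macrophage markers had an unadjusted p under 0.05, against 15.6% of all genes tested. The summed levels of the macrophage markers were 758 to 947 CPM in WSD+beta-Glucan. The part of this in the member values was not tested.

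**Figure D4:**
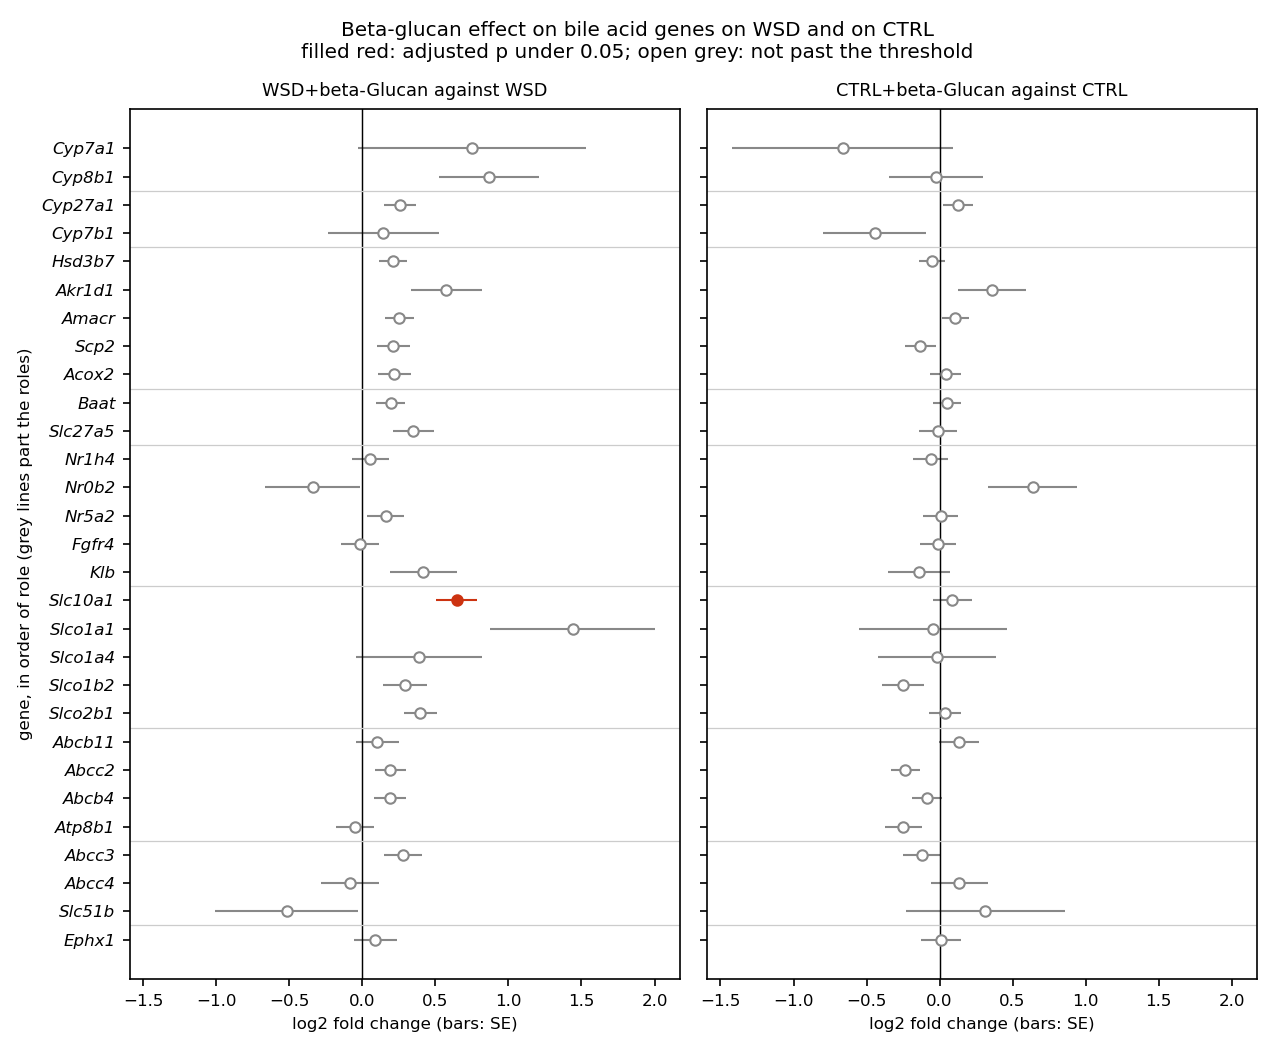
Log2 fold change with its SE for the 29 tested members in WSD+beta-Glucan against WSD and in CTRL+beta-Glucan against CTRL; filled red points have an adjusted p under 0.05. Slc10a1 at 0.65 is the only filled point.

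Beta-glucan without WSD, CTRL+beta-Glucan against CTRL, gave 0 of 29 members called in either direction with edgeR, and also with DESeq2 and limma-voom. Among all genes 0.00736% were higher and 0.0% lower. Abcc2 alone had an unadjusted p under 0.05, as did 5.7% of all genes tested (log2 -0.23 ± 0.10, adjusted p = 0.854). The median log2 fold change was -0.01 over the members. The values furthest from 0 were those of Cyp7a1 (-0.66 ± 0.76, adjusted p = 0.894) and Nr0b2 (0.64 ± 0.31, adjusted p = 0.854), which also had the highest coefficients of variation in CTRL. Slco1a4 and Slc10a1 were at -0.02 and 0.09.

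How far the effect of beta-glucan differed between WSD and CTRL, which is also how far the effect of WSD differed with and without beta-glucan, was tested in the same model. No member passed with edgeR, DESeq2 or limma-voom, and among all genes tested 0.0% were called higher and 0.00736% lower. An unadjusted p under 0.05 was found for 7 of 29 members and for 13.7% of all genes. For Slc10a1 the difference was 0.56 ± 0.19 on the log2 scale, for Slco1b2 0.54 ± 0.21, and for Abcc2 0.42 ± 0.15, with adjusted p between 0.25 and 0.29. For Nr0b2 it was -0.98 ± 0.45 (adjusted p = 0.349). So the fall of Slc10a1 in WSD was not shown to differ with beta-glucan.

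For 14 members with at least 2 transcripts above 10% of the gene's TPM in some group, 32 such transcripts were compared between WSD and CTRL. The shares of 6 transcripts, of 5 genes, did not overlap. How often shares do not overlap over the transcripts of all genes was not computed, so this count is not a result about the members. Shares within a gene depend on each other, so those of Slco2b1-207 and Slco2b1-202 are not separate results. Slco2b1-207 took 11.3 to 16.7% in CTRL and 5.47 to 8.12% in WSD, and Slco2b1-202 72.1 to 78.7% and 83.4 to 88.0%. Scp2-201 took 43.2 to 59.3% in CTRL and 34.0 to 41.6% in WSD, Acox2-201 53.3 to 59.0% and 59.3 to 65.1%, and Slco1a4-203 47.8 to 67.5% and 68.1 to 94.3%. The sixth was Abcb11-203, which is described with Abcc3-203 because both are short.

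Abcb11-203, a processed transcript of 648 bases beside the coding Abcb11-202 of 4893 bases, took 38.7 ± 11.6% of the gene's TPM in CTRL (18.2 to 46.5%) and 54.4 ± 9.23% in WSD (46.9 to 69.6%). Counted in reads it took 2.17 to 8.02% in CTRL and 8.20 to 18.99% in WSD. Every WSD library was thus above every CTRL library on both scales. In CTRL+beta-Glucan the share of TPM was 34.7 to 63.9% and in WSD+beta-Glucan 37.9 to 54.2%, which overlapped. Abcc3-203, a processed transcript of 567 bases, took 29.6 to 50.2% of its gene's TPM in CTRL and 48.3 to 66.6% in WSD, with overlap. These shares were not tested, and a short transcript's TPM depends strongly on its estimated effective length. With the effective length as an offset, the log2 fold change in WSD against CTRL was 0.36 for Abcb11 (adjusted p = 0.117) and 0.18 for Abcc3, and that of Abcc2 was -0.22, which did not pass (adjusted p = 0.108). That of Slco2b1 was -0.47 (adjusted p = 0.0064). With protein-coding transcripts alone, an alternative chosen after seeing the data, the values were -0.02 for Abcb11, -0.22 for Abcc3 and -0.41 for Abcc2. Of these Abcc2 passed (adjusted p = 0.00155). For Nr1h4, Nr1h4-201 took 65.5% of the TPM in CTRL and 64.6% in WSD.

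**Figure D5:**
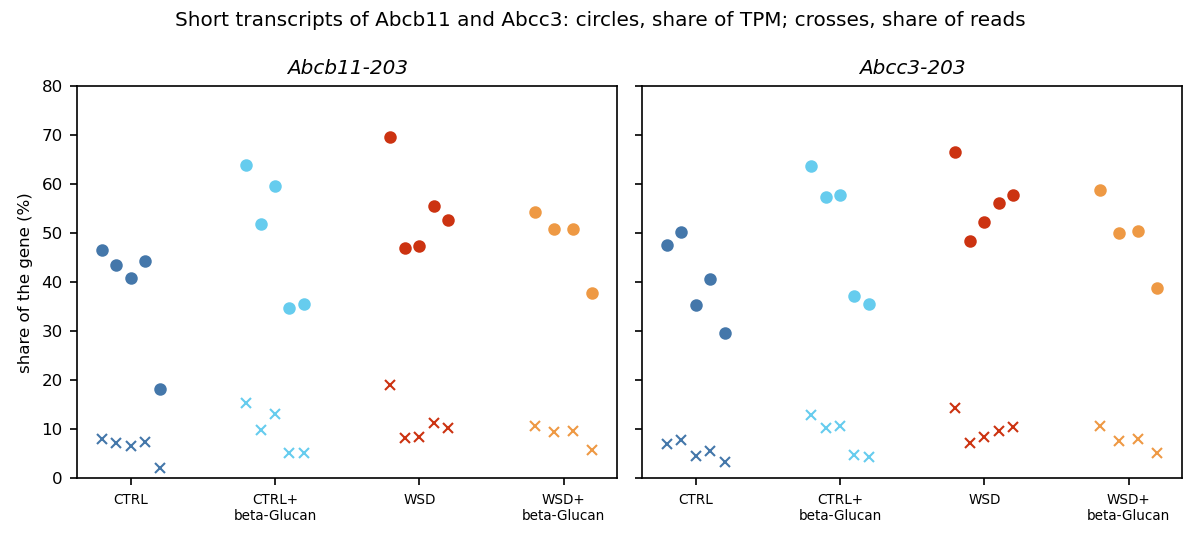
Share of the gene's TPM (circles) and of its reads (crosses) held by Abcb11-203 and Abcc3-203, in percent, 1 mark per library by group. For Abcb11-203 both shares are higher in every WSD library than in every CTRL library.

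A list of 47 other genes of the pathway, 44 of them tested, was examined in the same fits. In WSD against CTRL 6 of the 44 were higher and 20 lower, against 26.0% higher and 27.1% lower among all genes tested, by subgroup 1 higher and 7 lower of 12 synthesis genes, 1 and 7 of 11 regulators, 3 and 2 of 15 transporters and 1 and 4 of 6 detoxification genes and FXR targets. The largest rises were those of Abcb1a, a multidrug exporter (log2 2.09 ± 0.27, 1.90 to 8.09 CPM), Abcg5, a subunit of the canalicular sterol exporter (1.39 ± 0.22, 59.7 to 157 CPM), and S1pr2, a receptor that binds conjugated bile acids (1.16 ± 0.17, 7.40 to 16.6 CPM). The largest falls were those of Sult2a8, a hepatic sulfotransferase (log2 -2.12 ± 0.29, 342 to 79.0 CPM), Cyp39a1, the 24-hydroxycholesterol 7-alpha-hydroxylase (-1.63 ± 0.21, 33.6 to 10.9 CPM), and Por, the electron donor of microsomal P450 enzymes (-1.40 ± 0.22, 629 to 238 CPM). The adjusted p of these 6 genes ran from 2.45e-06 to 3.96e-05. In WSD+beta-Glucan against WSD 1 of the 44 passed, Nr1i3, the nuclear receptor CAR, chosen after its value was seen because it was the only one, at 285 ± 47.7 against 177 ± 36.1 CPM (log2 0.68 ± 0.13, adjusted p = 0.0276), against 0.0883% higher among all genes tested. In WSD+beta-Glucan against CTRL+beta-Glucan 7 were higher and 11 lower, against 19.1% and 15.2% of all genes tested, so the share higher was no greater than over all genes. In CTRL+beta-Glucan against CTRL none passed and 3 of the 44 had an unadjusted p under 0.05, against 5.7% of all genes tested.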

How the data were processed

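Bulk RNA sequencing of 19 mouse liver libraries was used. Per the labels' protocols, the RNA (PureLink kit) was made into stranded mRNA libraries (TruSeq). Salmon 1.10.1, GRCm39 and DESeq2 1.38.3 (no role given) are named in the submitters' processing notes; the transcript set and index options are not given in the sources used here. The deposited files hold, per transcript, estimated counts (expected counts, not scaled between libraries), TPM values (scaled for length within each library) and effective lengths in bases, another unit. Of 116546 transcripts 115977 (99.51%) were matched by identifier to GENCODE M21 (GRCm38), used for names; the rest held 0.0623% to 0.1095% of a library's reads and were left out.

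Estimated counts were summed per gene and rounded. In R 4.3.3 with edgeR 4.0.16, genes were filtered with filterByExpr, libraries scaled by TMM, and a mean per group fitted to all 19 libraries with the robust quasi-likelihood F test. The 5 contrasts were each adjusted by Benjamini and Hochberg over the 13594 genes tested, with a threshold of 0.05. The SE is the absolute log2 fold change divided by the square root of F. CPM values use TMM-scaled library sizes and are given as mean ± SD over libraries. TPM values were used only within CTRL and for shares within a gene, because their median over tested genes was 0.44 higher (log2, with 0.1 added) in WSD than in CTRL. DESeq2 1.42.0, limma-voom (limma 3.58.1) and the other alternatives are described with their effect in the closing section. The edgeR, DESeq2 and voom fits were run on simulated data, scored in WSD against CTRL alone. A limit on false calls was required there of edgeR and voom but not of DESeq2. Without molecular identifiers reads are not independent molecules, so limits from read numbers cover counting error only.

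Replicate numbers follow the order of deposition and pair nothing. The members, the lists of other genes and the markers were chosen with earlier results of these data known. All members are described. Values per library are given for members that passed with an absolute log2 fold change of at least 1 in either WSD comparison, or passed in either beta-glucan comparison, and for Cyp7a1, Cyp8b1, Cyp27a1, Nr1h4, Nr0b2, Slc10a1 and Abcb11. Of the other pathway genes the 3 with the highest and the 3 with the lowest log2 fold changes that passed in WSD against CTRL are named.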

Additional observations from a re-analysis of the deposited data

Results flagged for a closer look

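Within each group of 4 or 5 libraries, the highest and lowest CPM of each tested member was compared with the nearest other library. Of 116 such gene and group combinations 9 held a library that stood apart by Dixon's criterion, and chance gives about 1 in 20. In WSD+beta-Glucan replicate 4, Cyp7a1 was at 145 CPM (35.0 to 47.1 in the other libraries of the group), Klb at 25.8 CPM (14.4 to 15.6) and Slco1a4 at 55.5 CPM (26.5 to 31.1). WSD+beta-Glucan replicate 3 was low for Atp8b1, at 15.0 CPM (17.9 to 18.3), and for Ephx1, at 522 CPM (627 to 645). Slco1a1 stood apart in CTRL replicate 5 at 191.0 CPM (86.9 to 112) and in WSD replicate 3 at 24.0 CPM (5.16 to 8.93). Nr0b2 was at 74.5 CPM in CTRL replicate 1 (25.8 to 38.4), and Slc51b at 2.89 CPM in WSD replicate 5 (1.06 to 1.53).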

How the results depend on the processing

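Each result was recomputed under 28 alternatives, 19 of which left out 1 library. The difference between both beta-glucan effects had 27, because it needs all groups and so has no fit of only both groups compared. Of the calls, 12 of 18 in WSD against CTRL and 5 of 11 in WSD+beta-Glucan against CTRL+beta-Glucan passed in every alternative, and 0 of 1 in WSD+beta-Glucan against WSD. No call changed direction. The count of members higher in WSD+beta-Glucan than in WSD, 1 in the reported analysis, was 0 with RLE size factors, without the filter on low counts, with effective length offsets, without the 3 libraries with other titles and with protein-coding transcripts only (chosen after seeing the data), and 2 with DESeq2 or with a term for the 3 libraries. Members higher in WSD+beta-Glucan than in CTRL+beta-Glucan numbered 1 without the filter and 0 without the 3 libraries, against 2. Where these counts moved, the cause was not tested.

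Leaving out 1 library at a time, the number higher in WSD than in CTRL ran from 0 (without WSD replicate 5) to 2 (without CTRL replicate 1) and the number lower from 13 (without WSD replicate 1) to 17. In WSD+beta-Glucan against WSD 0 to 2 were higher. In WSD+beta-Glucan against CTRL+beta-Glucan 0 to 2 were higher and 5 (without WSD+beta-Glucan replicate 2) to 11 lower. In CTRL+beta-Glucan against CTRL and in the difference between effects no alternative gave or removed a call. No paired analysis was possible because replicate numbers only follow the order of deposition and the labels tie no libraries across groups. Depth limits Slc51b, Gpbar1 and Slc51a, with few reads per library.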

Other observations

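Bile acid genes such as Cyp7a1 vary over the day, and the time of sampling is not given in the sources used here. A pair of clock genes, chosen after their values were seen, differed between WSD and CTRL. Dbp, a clock output factor, was higher in WSD than in CTRL (log2 2.76 ± 0.52, adjusted p = 0.000334) and Arntl, the core clock factor BMAL1, was lower (-1.14 ± 0.16, adjusted p = 6.13e-06). In WSD+beta-Glucan against CTRL+beta-Glucan they were at 2.48 ± 0.53 (adjusted p = 0.00182) and -0.99 ± 0.17 (adjusted p = 0.000158), and in neither beta-glucan comparison did they pass. The part of this in the member values was not tested.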
